A study of Mus musculus with 9 samples.

Results

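The genes described are the insulin-like growth factor (IGF) ligand *Igf1*, the receptors *Igf1r* and *Insr*, and the IGF binding protein genes *Igfbp2* to *Igfbp7*. They were taken by symbol from the deposited table, whose gene positions are on mouse build mm10, and all 9 of them were among its 26858 genes and among the 14990 genes that passed the filter on low counts. RNA had been sequenced from cells sorted for eGFP from mouse kidneys at E18.5. The 4 control libraries came from *Six2-Qpc*+/- animals, heterozygous for *Qpc* (*Uqcrq*, the Q-binding subunit of mitochondrial complex III), and the 5 mutant libraries from *Six2-Qpc*-/- knockout animals. Both genotypes carried the transgene that fuses eGFP to Cre under the *Six2* promoter, so the controls had Cre and lacked 1 functional copy of *Qpc* in these cells, and no Cre-negative library was among those analysed. The sort follows *Six2* promoter activity, and differentiating control cells with little eGFP may have been collected as well. The cells came from 4 control and 5 mutant mice, as many as there are libraries. Litters are not given in the sources used here. The p-values set the difference between genotypes against the spread between these libraries. They take the libraries as independent, which could not be checked.

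IGF1 and IGF2 are secreted growth factors that signal through the tyrosine kinase receptor IGF1R and, for IGF2 in particular, through a splice form of the insulin receptor. Both receptors pass the signal through IRS adaptors to PI3K and AKT, which restrain the FOXO transcription factors. Most IGF in extracellular fluid is held by binding proteins of the IGFBP family, which keep the ligand from its receptors, store it in the matrix or deliver it, and which proteases such as PAPP-A cut to set the ligand free. IGFBP7 is a distant relative that binds IGFs weakly. In the embryonic kidney, IGF signaling is known as a growth signal for the nephrogenic mesenchyme.

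Library totals lay between 21040536 and 23986458 counts. *Uqcrq* had 76.8 to 107 CPM in control and at most 28.2 CPM in mutant libraries (log2 fold change −2.14, adjusted p = 2.09e-05, edgeR quasi-likelihood test). The 10 nephron progenitor markers, *Six2* among them, summed to 2136 to 2633 CPM (counts per 1000000 of the normalized library size) in control and 2143 to 2601 CPM in mutant libraries, so the markers of the labelled cell type were plentiful in every library. The libraries also held transcripts of marker genes for other cell types and for committed progenitors and podocytes. Of 12 stromal markers, 7 were higher in mutant cells and 0 were lower at an adjusted p under 0.05 (edgeR). Of all genes tested, 7.82% were higher and 7.02% lower at that threshold. The stromal marker sum was 219 to 359 CPM in control and 441 to 1079 CPM in mutant libraries, highest in mutant replicate 75 and next in mutant replicate 74. Of 9 macrophage markers, 3 were higher, with sums of 2.39 to 15.1 and 11.0 to 153.7 CPM. Of 10 endothelial markers, 7 could be tested. *Pecam1* was higher, from at most 9 reads per control library to at most 57 per mutant library, and *Plvap* and *Egfl7* were lower. *Cdh5*, which defines endothelium, had at most 17 reads in any library. Of 10 markers of committed progenitors and podocytes, *Wnt4* and *Lhx1* were lower, and their sums were 316 to 564 CPM in control and 235 to 364 CPM in mutant libraries. Endothelial sums were 28.5 to 37.4 CPM in control and 14.7 to 23.6 CPM in mutant libraries. They came mostly from *Plvap* (means of 17.7 CPM in control and 4.83 CPM in mutant libraries) and *Egfl7* (11.5 and 7.19 CPM). *Cdh5* had at most 1 read in a control library and 2 to 17 in mutant libraries. Of the 7 tested endothelial markers, 4 had a log2 fold change above 0 and 3 below 0. The lower sum therefore does not describe the list as a whole. With bulk RNA, more cells of a type, more RNA per cell and expression of the markers by the sorted progenitors cannot be told apart.

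In the fit on all genes, 4 of the 9 genes passed an adjusted p of 0.05, against 14.8% of all genes tested. *Igfbp4*, *Igfbp5* and *Igfbp2* fell in mutant cells (7.02% of all genes were called lower), and *Igfbp7* rose (7.82% were called higher). *Igf1*, *Igf1r*, *Insr*, *Igfbp3* and *Igfbp6* did not pass. At an unadjusted p of 0.05, which 31.4% of all genes passed, *Igf1* and *Igfbp6* joined the 4. For *Igfbp2*, *Igfbp4*, *Igfbp6* and *Igfbp7* the genotypes did not overlap in CPM, which held for 15.2% of all genes tested.

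**Figure D1:**
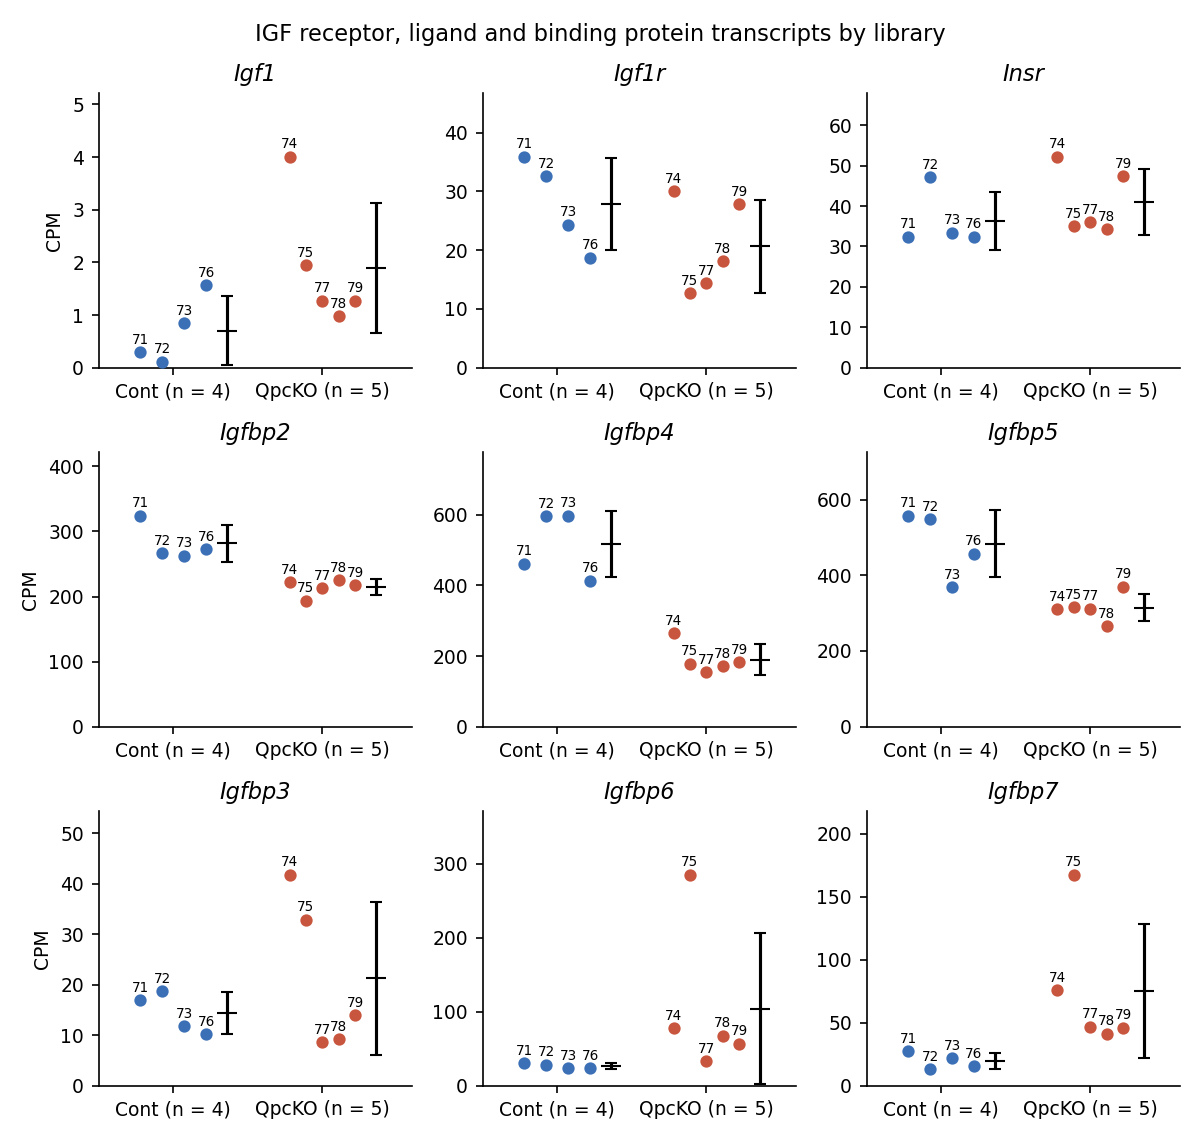
CPM (per 1000000 of the TMM-normalized library size, linear axes from 0) of the 9 genes in each control (Cont) and mutant (QpcKO) library, with the replicate number beside each point and the mean ± SD as a bar at the right of each genotype. *Igfbp4* and *Igfbp2* are lower in all 5 mutant than in all 4 control libraries, and mutant replicate 75 stands far above the other mutant libraries for *Igfbp6*, at 285 CPM, and *Igfbp7*, at 167 CPM.

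*Igf1*, the ligand (ENSMUSG00000020053, chromosome 10, 87858265 to 87937042), was barely expressed in the sorted cells. It had 7, 3, 20 and 37 reads in control replicates 71, 72, 73 and 76, and 94, 44, 25, 20 and 28 reads in mutant replicates 74, 75, 77, 78 and 79. In CPM these were 0.298, 0.117, 0.843 and 1.56 in control and 4.01, 1.95, 1.28, 0.984 and 1.27 in mutant libraries. Control replicate 76 lay within the mutant range, and mutant replicate 74 was well above the rest. The log2 fold change of 1.43 (standard error, SE, 0.64, 95% interval 0.05 to 2.81) had an unadjusted p of 0.0432 and an adjusted p of 0.145 (edgeR), and the exact permutation test of log2 CPM gave p = 0.0635 (2-sided). Without control replicate 76 it was 2.18, with an adjusted p of 0.0466, without mutant replicate 74 it was 0.96, with an adjusted p of 0.284, and without mutant replicates 74 and 75 it was 0.74, with an adjusted p of 0.486. *Igf1os*, an antisense gene, overlaps *Igf1* over 5117 bp, and the libraries do not keep the strand. *Igf2*, the ligand of fetal growth and an imprinted gene, was far more abundant, with 134 ± 13.2 CPM per kilobase of gene length (SD, n = 4) in control cells against 0.0999 ± 0.092 for *Igf1*. *Igf2* fell to 77.01 ± 13.8 CPM per kilobase (SD, n = 5) in mutant cells, a log2 fold change of −0.80 (SE 0.14, adjusted p = 0.00387, edgeR), with 555 to 701 CPM in control and 266 to 423 CPM in mutant libraries. The genotypes did not overlap for *Igf2*, and it was called with any 1 library left out. The insulin genes *Ins1* and *Ins2* had at most 4 reads in any library.

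For neither receptor was a difference beyond the spread between libraries detected. *Igf1r*, the main signaling receptor for both ligands (ENSMUSG00000005533, chromosome 7, 67952859 to 68226780), had 35.9, 32.6, 24.3 and 18.7 CPM in control replicates 71, 72, 73 and 76 and 30.0, 12.7, 14.4, 18.2 and 27.8 CPM in mutant replicates 74, 75, 77, 78 and 79. The genotypes overlapped over most of their ranges. Its log2 fold change was −0.43 (SE 0.27, 95% interval −1.01 to 0.14, adjusted p = 0.289, edgeR). *Insr*, the insulin receptor (ENSMUSG00000005534, chromosome 8, 3150922 to 3279617), had 32.5, 47.2, 33.4 and 32.4 CPM in control and 52.2, 35.1, 35.96, 34.3 and 47.3 CPM in mutant libraries in the same order. Control replicate 72 and mutant replicates 74 and 79 were above the other libraries, which lay close together in both genotypes. The log2 fold change was 0.17 (SE 0.17, 95% interval −0.20 to 0.54, adjusted p = 0.531, edgeR), and only a fit with 1 surrogate variable, which called 20.8% of all genes, called it, at 0.32 with an adjusted p of 0.0450. The exact permutation tests gave p = 0.206 for *Igf1r* and 0.341 for *Insr*. Per kilobase of gene length, the level of *Igf1r* was 2.30, 1.44, 1.52 and 1.20 times that of *Insr* in the control libraries and 1.20, 0.753, 0.834, 1.10 and 1.22 times in the mutant libraries, so the ranges met at 1.20 and 1.22. *Insr* shares 938 bp with the antisense gene *Gm16180*. The table's models of both receptor genes end before those of GENCODE M21 on the 3′ side, *Igf1r* by 6888 bp and *Insr* by more, which bears on their levels per length.

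*Igfbp4* encodes a binding protein that inhibits IGF action until PAPP-A cuts it, and it had the largest fall of the 9 genes (ENSMUSG00000017493, chromosome 11, 99041244 to 99054392). The control libraries had 461, 595, 597 and 413 CPM in replicates 71, 72, 73 and 76, and the mutant libraries 266, 178, 154, 170.4 and 182 CPM in replicates 74, 75, 77, 78 and 79. All mutant libraries were below all control libraries, and mutant replicate 74 was nearest to the controls. Mean levels were 517 ± 94.0 CPM (SD, n = 4) and 190.1 ± 43.7 CPM (SD, n = 5), and the log2 fold change was −1.44 (SE 0.17, adjusted p = 0.000472, edgeR), a 2.72-fold lower level. The exact permutation test gave p = 0.00794, the smallest p for 4 libraries against 5. The markers of committed progenitors were lower in the mutant libraries as well, and their part in the fall of *Igfbp4* was not tested. *Igfbp4* was called under all alternatives tried, with log2 fold changes between −1.65 and −1.29.

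*Igfbp5* and *Igfbp2* lie tail to tail on chromosome 1, 5457 bp apart, and both fell by less than *Igfbp4*. *Igfbp5*, a binding protein that also attaches to extracellular matrix (ENSMUSG00000026185, 72857932 to 72874884), had 557, 548, 368.6 and 457 CPM in the control and 309.8, 316, 312, 266 and 369.6 CPM in the mutant libraries, in the order used for *Igfbp4*. The genotypes met at control replicate 73 and mutant replicate 79. Its log2 fold change was −0.62 (SE 0.14, adjusted p = 0.0120, edgeR; exact permutation p = 0.0159). The edgeR call was kept with any 1 library left out. *Igfbp2*, a major binding protein of fetal tissues (ENSMUSG00000039323, 72824503 to 72852474), had 324, 267, 263 and 273 CPM in control and 222, 194, 213, 226 and 218 CPM in mutant libraries. No mutant library reached the controls, and the spread within a genotype was small. The log2 fold change was −0.39 (SE 0.10, adjusted p = 0.0252, edgeR; exact permutation p = 0.00794). That call rested on several libraries, since the adjusted p was 0.0686 without control replicate 71, 0.0526 without control replicate 73, 0.0575 without mutant replicate 75 and 0.0544 without mutant replicate 77, with log2 fold changes from −0.43 to −0.32.

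The promoters of *Igfbp4*, *Igfbp2* and *Igfbp5*, the members that fell, are shown for reference. Promoter activity was not measured, and the part of the promoters in the falls was not tested. Windows of 250 bases before the RefSeq transcription start (build GRCm38.p6, gene strand, 5′ to 3′) were searched on both strands for a TATA box (TATAAA), a GC box (GGGCGG), a FOXO site (GTAAACA) and the core of the C/EBP-ATF element that ATF4 can bind (TGATGNAA), and capitals mark the matches, none of which overlapped. Of 32851 windows of all genes, 12.4% held the TATA box, 32.7% the GC box, 3.17% the FOXO site and 3.45% the C/EBP-ATF core. The window of *Igfbp4* (chr11:99040994-99041243, plus strand) held 1 TATA box, that of the *Igfbp2* start nearest to the table's gene start (chr1:72824230-72824479, plus strand) held 3 GC boxes, and that of *Igfbp5* (chr1:72874866-72875115, minus strand) held none of the 4 motifs. RefSeq gives *Igfbp2* a further start downstream, whose window held none either.
Igfbp4: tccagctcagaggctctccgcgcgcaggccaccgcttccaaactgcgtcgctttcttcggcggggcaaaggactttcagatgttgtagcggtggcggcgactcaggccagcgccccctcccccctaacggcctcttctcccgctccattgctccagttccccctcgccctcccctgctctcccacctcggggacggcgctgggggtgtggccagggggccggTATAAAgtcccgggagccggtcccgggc
Igfbp2: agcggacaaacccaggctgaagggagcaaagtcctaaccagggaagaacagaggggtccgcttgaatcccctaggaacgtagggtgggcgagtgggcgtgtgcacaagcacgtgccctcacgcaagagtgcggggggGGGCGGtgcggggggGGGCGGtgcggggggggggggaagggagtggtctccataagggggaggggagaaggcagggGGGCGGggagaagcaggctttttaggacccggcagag
Igfbp5: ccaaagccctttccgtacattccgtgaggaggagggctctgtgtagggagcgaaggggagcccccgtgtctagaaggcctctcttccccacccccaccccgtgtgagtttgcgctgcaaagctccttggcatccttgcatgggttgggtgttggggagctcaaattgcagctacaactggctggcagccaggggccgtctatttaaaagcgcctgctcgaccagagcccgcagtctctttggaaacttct
No window of the 8 members with an entry held the FOXO site or the C/EBP-ATF core as spelled here, and *Insr* had no entry.

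*Igfbp7*, whose product is secreted into the matrix around vessels and mesenchymal cells, was the member that rose (ENSMUSG00000036256, chromosome 5, 77349240 to 77408045). It had 27.5, 13.0, 21.9 and 15.4 CPM in control replicates 71, 72, 73 and 76 and 75.8, 167, 46.8, 41.2 and 46.1 CPM in mutant replicates 74, 75, 77, 78 and 79. The lowest mutant value was above the highest control value, and mutant replicate 75 was far above the other mutant libraries. The log2 fold change was 1.96 (SE 0.45, adjusted p = 0.0178, edgeR; exact permutation p = 0.00794), and it was 1.43 without mutant replicate 75, with an adjusted p of 0.00571. The call was lost without control replicate 72, 73 or 76, at adjusted p-values of 0.0714, 0.0559 and 0.0504 and log2 fold changes of 1.80, 2.02 and 1.87. The gene overlaps *Polr2b* over 85 bp and the antisense gene *Gm34648* over 7085 bp, both on the opposite strand. Its promoter (chr5:77408046-77408295, minus strand) is given for comparison with those of the genes that fell, and held 4 GC boxes.
Igfbp7: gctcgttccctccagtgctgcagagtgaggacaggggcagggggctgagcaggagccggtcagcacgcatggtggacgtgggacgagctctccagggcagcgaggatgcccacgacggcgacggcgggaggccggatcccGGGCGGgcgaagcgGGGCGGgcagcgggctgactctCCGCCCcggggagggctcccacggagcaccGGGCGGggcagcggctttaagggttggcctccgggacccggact

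*Igfbp6*, a binding protein that prefers IGF2 (ENSMUSG00000023046, chromosome 15, 102144362 to 102149511), had 30.3, 28.6, 23.9 and 23.3 CPM in control and 77.5, 285, 33.6, 67.4 and 57.0 CPM in mutant libraries in the same order. Mutant replicate 77 was just above the highest control library and mutant replicate 75 was several-fold above the others, so the genotypes did not overlap while the mutant libraries differed widely. The log2 fold change of 1.97 (SE 0.60, 95% interval 0.61 to 3.33) had an adjusted p of 0.0586 (edgeR; exact permutation p = 0.0159), so *Igfbp6* did not pass. It passed when mutant replicate 75 was left out, at 1.15 with an adjusted p of 0.00804, when mutant replicate 77 was left out, at 2.20 with an adjusted p of 0.0322, and in DESeq2, which called 21.2% of all genes, at 1.98 with an adjusted p of 0.00917. limma-voom, which called 32.5% of all genes, gave 1.48 with an adjusted p of 0.0187. *Igfbp3*, the main carrier of IGF in blood (ENSMUSG00000020427, chromosome 11, 7206086 to 7213923), had 16.96, 18.7, 11.8 and 10.2 CPM in control and 41.8, 32.9, 8.57, 9.15 and 14.0 CPM in mutant libraries. Mutant replicates 74 and 75 were above all controls, and the other mutant libraries lay within or just below the control range. The log2 fold change was 0.56 (SE 0.45, 95% interval −0.42 to 1.55, adjusted p = 0.427, edgeR; exact permutation p = 0.571). *Igfbp1*, its neighbour 3539 bp away, was too low to test, with at most 19 reads in a control and 4 in a mutant library.

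Mutant replicates 74 and 75, which had the most *Igfbp6* and *Igfbp7*, also had the highest stromal marker sums. Among mutant libraries they also had the highest sums of the ureteric bud marker list. The summed stromal markers were 676 CPM in mutant replicate 74 and 1079 CPM in mutant replicate 75, and 441, 477 and 565 CPM in mutant replicates 77, 78 and 79, against 251, 233, 219 and 359 CPM in control replicates 71, 72, 73 and 76. With mutant replicates 74 and 75 both left out, an alternative chosen after the data were seen, the log2 fold change was 1.20 for *Igfbp7* (adjusted p = 0.0052, edgeR) and 0.99 for *Igfbp6* (adjusted p = 0.00938, edgeR), while that of *Igfbp3* turned to −0.44 (adjusted p = 0.267, edgeR). In the same fit *Igfbp4* stood at −1.61, *Igfbp5* at −0.61 and *Igfbp2* at −0.36, the last with an adjusted p of 0.0628. The remaining mutant libraries still had higher stromal marker sums than any control, and the part of stromal cells in the rise of *Igfbp7* was not tested. The 10 ureteric bud markers summed to 114 CPM in mutant replicate 74 and 90.5 CPM in mutant replicate 75, to 55.6 to 72.5 CPM in the other mutant libraries and to 65.0 to 94.2 CPM in the control libraries. Among them *Ret*, *Wnt9b* and *Aqp2* had at most 13 reads in any library. The sums came mostly from *Hoxb7* (means of 40.5 CPM in control and 29.3 CPM in mutant libraries), *Krt18* (22.3 and 33.4 CPM) and *Wnt11* (12.9 and 7.17 CPM). The list's part in the levels of *Igfbp7* was not tested. Macrophage markers were highest in mutant replicate 77, at 153.7 CPM, the mutant library with the least *Igfbp6*.

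**Figure D2:**
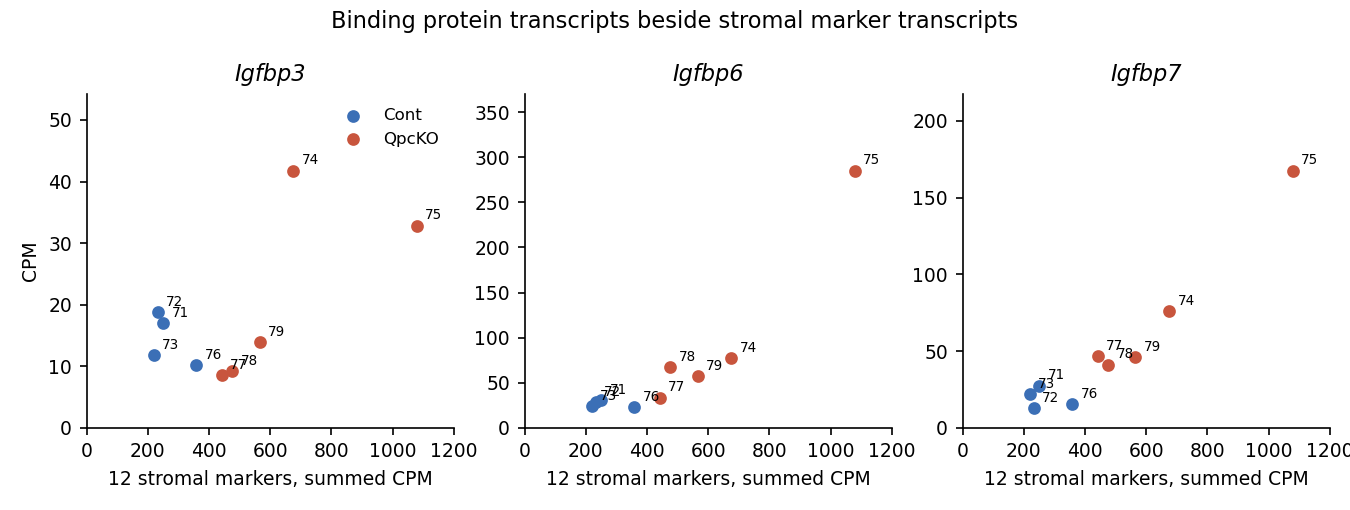
CPM of *Igfbp3*, *Igfbp6* and *Igfbp7* (vertical axes, linear) against the summed CPM of 12 stromal markers (horizontal axis) in the 4 control and 5 mutant libraries, with replicate numbers. Mutant replicate 75 is at the upper right for *Igfbp6* and *Igfbp7*, and mutant replicates 74 and 75 are apart from the other libraries for *Igfbp3*.

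**Figure D3:**
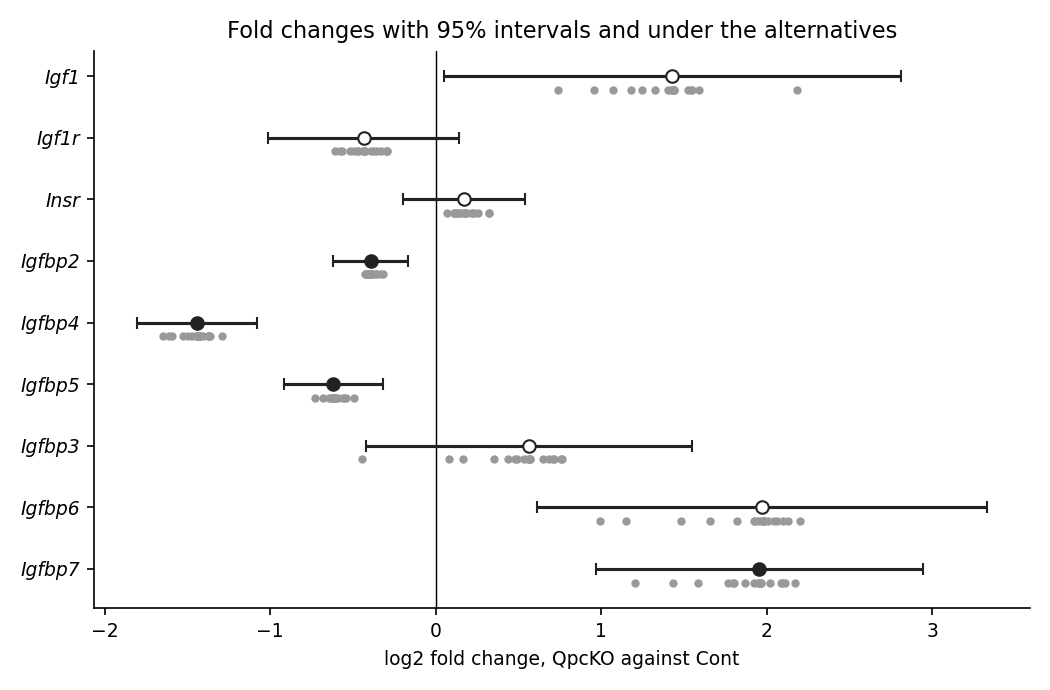
Log2 fold change, mutant against control, with its 95% interval (black bar) from edgeR for the 9 genes. Filled circles passed an adjusted p of 0.05 and open ones did not, and small gray points give the value under each alternative. All values of *Igfbp2*, *Igfbp4* and *Igfbp5* lie below 0, and those of *Igfbp6* and *Igfbp7* above it.

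Per kilobase of gene length, the order of levels in control cells was *Igfbp2* (216 ± 21.9 CPM per kilobase, SD, n = 4), *Igfbp4* (135 ± 24.5), *Igfbp5* (80.4 ± 14.7), *Igfbp6* (23.9 ± 3.11), *Igfbp7* (16.1 ± 5.40), *Igf1r* (6.21 ± 1.74), *Igfbp3* (5.95 ± 1.69), *Insr* (3.89 ± 0.770) and *Igf1* (0.0999 ± 0.092). Neighbours overlapped between *Igfbp6* and *Igfbp7*, and among *Igf1r*, *Igfbp3* and *Insr*. In mutant cells *Igfbp2* stayed first, with 164 ± 9.57 CPM per kilobase (SD, n = 5). It was followed by *Igfbp6* (93.6 ± 92.2), *Igfbp7* (62.2 ± 43.9), *Igfbp5* (52.4 ± 6.12) and *Igfbp4* (49.6 ± 11.4), which overlapped with each other, and *Igfbp6* overlapped with *Igfbp2* through mutant replicate 75. Without that library, an alternative added after the data were seen, *Igfbp6* stood at 52.9 ± 16.9, *Igfbp5* at 52.3 ± 7.07, *Igfbp4* at 50.4 ± 13.0 and *Igfbp7* at 43.3 ± 13.0 CPM per kilobase (SD, n = 4), so that *Igfbp7* came after *Igfbp4*. *Igfbp3* (8.78 ± 6.25), *Igf1r* (4.59 ± 1.76) and *Insr* (4.38 ± 0.879) again overlapped, and *Igf1* was last (0.269 ± 0.175).

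The 6 binding protein genes together had 1192 to 1471 CPM in control and 768 to 1173 CPM in mutant libraries. The genotypes did not overlap, though control replicate 76 and mutant replicate 75 were close. Of all single genes tested, 15.2% did not overlap either. In control libraries the sum came mostly from *Igfbp4*, *Igfbp5* and *Igfbp2* (means of 517, 483 and 282 CPM), so it largely repeats the falls of these genes. Per kilobase of gene length, which gives the short *Igfbp6* and *Igfbp7* more weight, the sums were 431 to 518 CPM per kilobase in control and 327 to 655 CPM per kilobase in mutant libraries, and they overlapped. Within the sum per kilobase, *Igfbp4* took 28.3 ± 5.00% of control and 12.1 ± 3.12% of mutant levels (SD over 4 and 5 libraries), and *Igfbp2* 45.3 ± 3.51% and 40.8 ± 11.0%. The share of *Igfbp5* was 16.8 ± 2.39% and 12.9 ± 3.47%. *Igfbp7* took 3.35 ± 0.985% in control and 13.3 ± 4.68% in mutant libraries, *Igfbp6* 4.99 ± 0.287% and 19.0 ± 11.6%, and *Igfbp3* 1.23 ± 0.273% and 1.94 ± 1.18%. These shares were not tested, since they follow from the counts already compared.

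**Figure D4:**
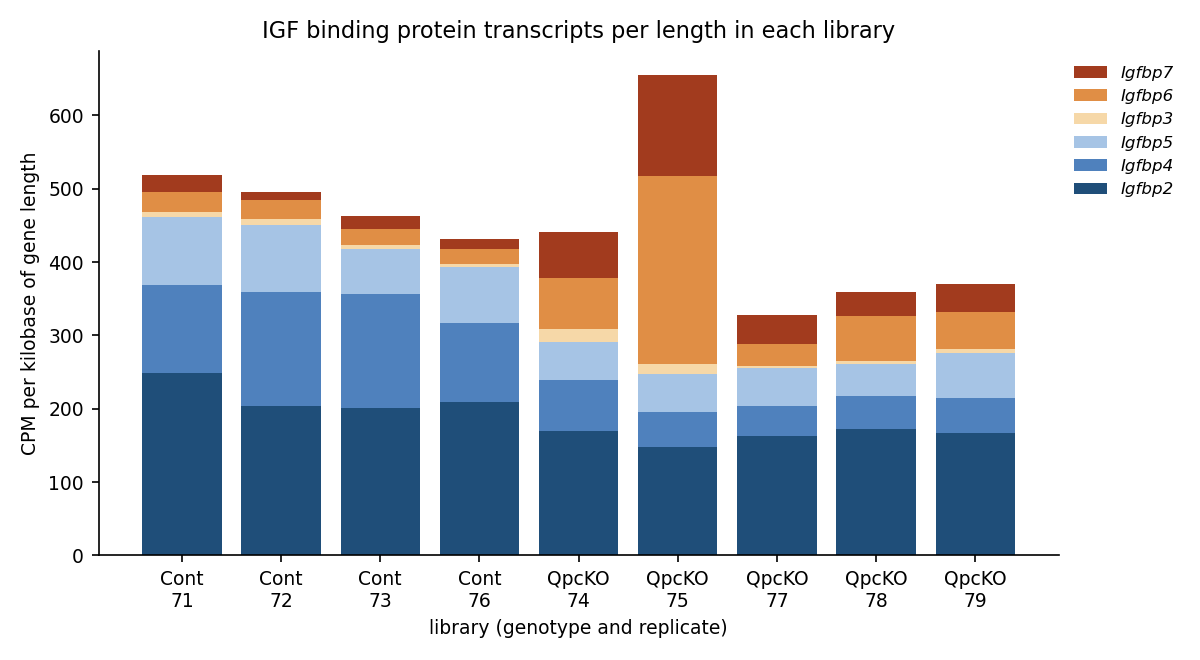
Stacked CPM per kilobase of gene length of the 6 IGF binding protein genes in each library, grouped by genotype. The control libraries are mostly *Igfbp2*, *Igfbp4* and *Igfbp5*, and mutant replicate 75 has the tallest bar, at 655 CPM per kilobase, through *Igfbp6* and *Igfbp7*.

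The other genes of the pathway were taken from 6 lists with 64 genes, of which 55 could be tested. In mutant cells 6 were higher and 5 lower with an adjusted p under 0.05 (edgeR), which is 20% against 14.8% of all genes, and the median log2 fold change was 0.05 against −0.01. The count was 6 without control replicate 71 or without mutant replicate 79, and 7 without control replicate 73. Calls over all genes fell in these fits too, from 2225 of 14990 genes tested. They were 1354 of 15249 without control replicate 71, 1739 of 14805 without mutant replicate 79 and 1046 of 15267 without control replicate 73. Among 6 tested genes that cut binding proteins or restrain the cutting, *Htra3*, a serine protease, fell from 16.95 ± 4.70 to 6.35 ± 1.43 CPM (SD, n = 4 and 5), a log2 fold change of −1.42 (SE 0.23, adjusted p = 0.00269, edgeR). The stanniocalcins inhibit PAPP-A, and they went in opposite directions. *Stc2* rose from 6.85 ± 1.91 to 14.9 ± 4.28 CPM (log2 fold change 1.12, SE 0.26, adjusted p = 0.0149, edgeR) and *Stc1* fell from 83.05 ± 18.0 to 57.3 ± 8.99 CPM (log2 fold change −0.53, SE 0.16, adjusted p = 0.0437, edgeR). The call of *Stc1* was kept only when control replicate 73 or mutant replicate 74 was the library left out, and its log2 fold change lay between −0.65 and −0.44. *Pappa*, the gene of PAPP-A, had 4.23 ± 1.25 and 7.501 ± 2.59 CPM (log2 fold change 0.83, adjusted p = 0.0877), and only the fit without mutant replicate 78 called it among those with 1 library left out, at an adjusted p of 0.0434. DESeq2 and the fit with 1 surrogate variable called it too, at 0.0385 and 0.0248. Of 8 tested genes with an IGFBP domain outside the family, *Kazald1* alone was called (12.5% against 14.8% of all genes), with 47.5 ± 11.2 CPM in control and 10.1 ± 2.86 CPM in mutant cells.

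Of the 13 receptor adaptors tested, 0 passed in edgeR, while 4 had an unadjusted p under 0.05, a threshold that 31.4% of all genes passed. DESeq2 called 2 of them against 21.2% of all genes, limma-voom 3 against 32.5%, and the fit with 1 surrogate variable 2 against 20.8%. *Irs1* had a log2 fold change of 0.22 (SE 0.35), *Irs2* of −0.55 (SE 0.42), with 12.2 to 42.6 CPM in control and 7.48 to 32.1 CPM in mutant libraries, and *Grb10*, an imprinted gene whose product dampens the receptors, of 0.13 (SE 0.11). *Igf2r*, which clears IGF2 from the cell surface, had 37.8 ± 6.58 CPM in control and 36.7 ± 9.58 CPM in mutant cells, with a 95% interval of the log2 fold change from −0.44 to 0.36. Of 18 tested genes of PI3K, AKT and FOXO, 4 were higher and 1 was lower, which is 27.8% against 14.8% of all genes (7.82% higher, 7.02% lower). *Pik3r3*, a regulatory subunit of PI3K, fell from 15.8 ± 5.00 to 6.73 ± 1.01 CPM (log2 fold change −1.23, SE 0.24, adjusted p = 0.00602, edgeR). *Foxo3*, a transcription factor that AKT restrains, rose from 18.6 ± 2.80 to 27.1 ± 2.69 CPM (log2 fold change 0.55, SE 0.15, adjusted p = 0.0272, edgeR). *Foxo3* was not called without control replicate 71 or 73 or mutant replicate 78 or 79, with an adjusted p of at most 0.0707. *Foxo1* and the growth hormone receptor gene *Ghr* were also higher, and *Foxo1* was called in 5 and *Ghr* in 1 of 9 fits that left out 1 library. *Kazald1*, *Htra3*, *Pik3r3*, *Stc2* and *Igf2* were called in all 9.

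**Figure D5:**
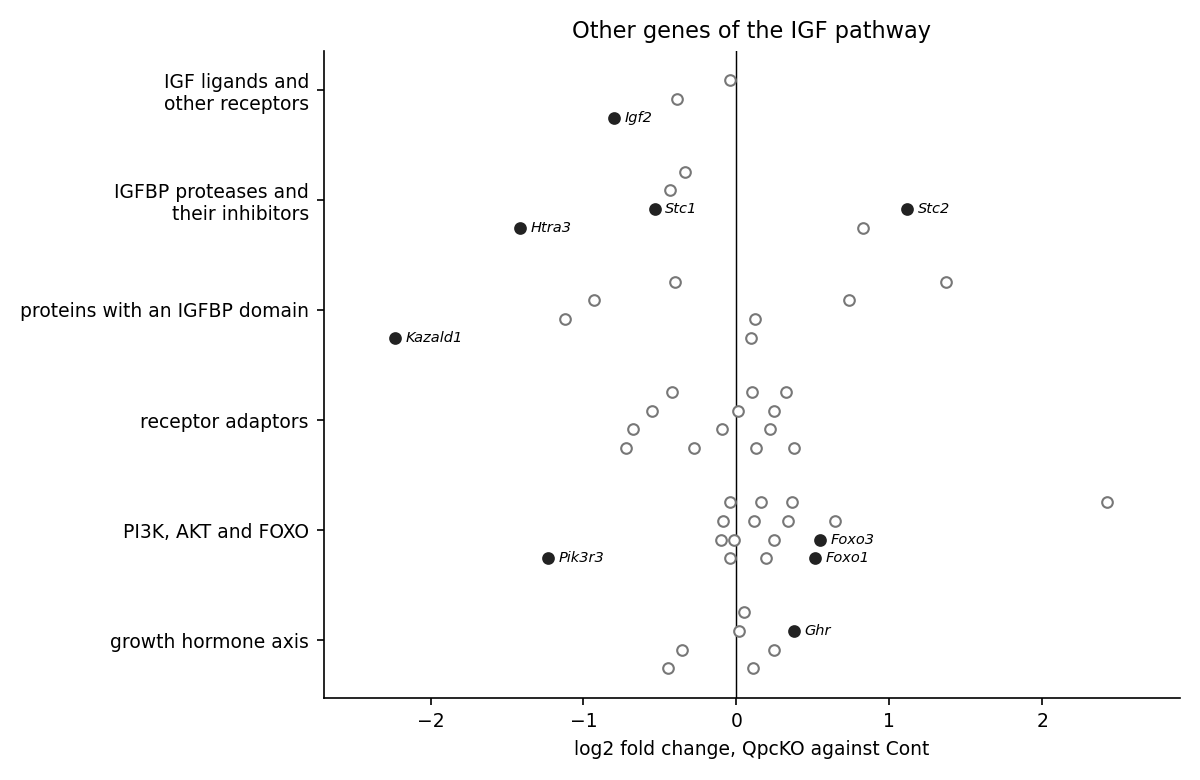
Log2 fold change, mutant against control, of 53 of the 55 tested pathway genes by list. Filled circles with names passed an adjusted p of 0.05 (edgeR) and open circles did not, and 5 of the named genes lie below 0 and 4 above it.

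After the mean of each genotype was removed, the genes whose log2 CPM followed the called members most closely over the 9 libraries, among 9352 genes whose mean CPM was 10 or more, were *Plod3*, *Rasa3* and *Ckap4* for *Igfbp4* (Pearson r of 0.99, 0.98 and 0.97), *Rbfox1*, *Cdkn1a* and *Wt1os* for *Igfbp2* (0.97, 0.96 and 0.93), *P4htm*, *Abca1* and *Dnajc17* for *Igfbp5* (0.88, 0.86 and 0.86) and *Selm*, *Rilpl2* and *Fam105a* for *Igfbp7* (0.98, 0.96 and 0.94). With so few libraries and so many genes these values only describe the libraries at hand. The points share a library and its depth.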

How the data were processed

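RNA-seq had been done on 9 libraries from eGFP-sorted cells, 4 control and 5 mutant, with cDNA amplified from little RNA, poly(A) selection and no strand information. Per the labels, mm10, STAR and DESeq2 were used; the counting tool and all versions are not given in the sources used here. The authors deposited raw read counts per gene, which were the values tested, and a gene length in bases used for levels per length. They also deposited FPKM values, a normalized signal averaged by genotype, log2 fold changes and p-values of their own comparison, none of which were used.

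Counts were analysed with R 4.3.3 and edgeR 4.0.16 (filterByExpr, TMM, robust quasi-likelihood test, Benjamini-Hochberg over 14990 genes, threshold 0.05). Log2 CPM for permutation tests had 0.5 counts added, and these tests used all 126 ways to label 4 of 9 libraries as control, 2-sided. The 95% intervals of fold changes use the t distribution with each gene's degrees of freedom. On simulated counts, 62.4% of genes changed by a log2 of 1 and 90% of those changed by 2 were recovered among 14756 genes. Alternatives used DESeq2 1.42.0, limma 3.58.1, sva 3.50.0, other factors and filters, Y-linked expression as a covariate, and each library left out. Figures were drawn with matplotlib 3.10.9. Library totals of 21040536 to 23986458 counts leave little counting error except for genes with few reads, such as *Igf1*.

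Named were the 9 genes, called pathway genes (values for the 8 largest changes; 2 called genes are counted but not reported here by name or plotted), *Igf2*, *Igf2r*, *Irs1*, *Irs2*, *Stc2* and *Grb10* in any case, *Uqcrq*, and the 3 genes most like each called member. *Pappa*, *Igfbp1*, the insulin genes and single markers were added to these with their values known. The members and lists were chosen with earlier results of these data known. Gene positions are those of the table, and overlaps and gene models come from GENCODE M21 on the same build (GRCm38). 1 macrophage marker, *Adgre1*, was not matched.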

Additional observations from a re-analysis of the deposited data

Results flagged for a closer look

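In 4 of 20 groups of libraries, a single library stood apart from its group by a gap that chance alone gives in about 1 of 20 groups. *Igfbp6* in mutant replicate 75 was at 285 CPM, the next at 77.5 CPM, and *Igfbp7* in the same library was at 167 CPM, the next at 75.8 CPM. *Igfbp4* in mutant replicate 74 was at 266 CPM, the next at 182 CPM and still below the control libraries. *Insr* in control replicate 72 was at 47.2 CPM, the next at 33.4 CPM.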

How the results depend on the processing

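*Igfbp4* and *Igfbp5* were called by edgeR or its replacement under all alternatives tried. No filter on low counts left 2 of the 9 genes called, none (0) of them higher, with log2 fold changes of −0.39 for *Igfbp2* and 1.96 for *Igfbp7* and adjusted p-values of 0.0552 and 0.0762. That fit called 1975 of 26858 genes, against 2225 of 14990 in the main fit. DESeq2 called 2 higher, adding *Igfbp6* at 1.98, and limma-voom also 2, with *Igfbp6* at 1.48. The fit with 1 surrogate variable called *Insr*, at 0.32, and lost *Igfbp7*, at 1.77 and an adjusted p of 0.0520. Without mutant replicates 74 and 75, chosen after seeing the data, 2 were called higher, with *Igfbp6* at 0.99, *Igfbp2* was lost at −0.36, and *Igfbp3* reversed to −0.44. On CPM without the log the permutation p of *Igfbp6* was 0.0635. Among all genes limma-voom called 4868 (2413 higher, 2455 lower), which is 32.5%, and among the 55 tested pathway genes 18 (9 lower). Pathway genes called higher were 10 in DESeq2 and 11 with 1 surrogate variable. These 2 fits called 1746 and 1625 of all 14990 genes higher. A filter that asked for 10 counts or more in each library removed *Igf1*.

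With 1 library left out, 2 to 4 of the 9 genes were called, 0 to 2 of them higher, 6 to 15 pathway genes, 2 to 8 of them higher, and 1046 to 3136 of all genes, 555 to 1603 higher and 491 to 1533 lower. The count of all genes fell to 1354 without control replicate 71, 1272 without control replicate 72, 1046 without control replicate 73 and 1336 without mutant replicate 78. Log2 fold changes lay between 0.96 and 2.18 for *Igf1*, −0.43 and −0.32 for *Igfbp2*, 1.15 and 2.20 for *Igfbp6* and 1.43 and 2.17 for *Igfbp7*. Exact permutation p-values lay between 0.0179 and 0.171 for *Igf1*, 0.371 and 1 for *Igfbp3* (with the direction reversed without mutant replicate 74), 0.0179 and 0.0571 for *Igfbp5* (0.0571 without mutant replicate 74, 75, 77 or 78) and 0.0286 and 0.0714 for *Igfbp6*. Leaving out a library also raises the smallest p that the permutation test can give. For *Igfbp4*, whose genotypes did not overlap, that test gave 0.00794 with all libraries. It gave 0.0179 without any 1 control and 0.0286 without any 1 mutant library, the smallest values possible there. Other causes of these changes were not tested.

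No paired analysis was possible because the genotypes share no replicate numbers. Low counts limit *Igf1*, and 4 against 5 libraries limit the rest.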
